A study of Drosophila melanogaster with 6 samples.

Results

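The genes described here encode sperm nuclear basic proteins, the small positively charged proteins that replace histones when the spermatid nucleus is compacted. They were chosen by name, as the rows of the deposited gene table for ProtA, ProtB, Mst77F, Prtl99C, Tpl94D, tHMG1 and tHMG2. All 7 were present among the 11491 genes of the table. ProtA is also known as Mst35Ba and ProtB as Mst35Bb. Tpl94D, a transition protein-like gene, was lower in the Zeus KO testis, where its level was 0.66 of that in control. For the other 6 genes the libraries of the groups overlapped, and the levels in Zeus KO lay between 0.91 and 1.08 of those in control.

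The RNA-seq libraries were made from poly(A) RNA of whole adult testes of Drosophila melanogaster, 3 from Zeus KO males and 3 from males of the control injection line, labelled WT. Zeus is a young testis gene copied by retroposition from Caf40, and the question was which genes change their expression when it is lost. Zeus KO flies carried small frameshift deletions in the Zeus coding sequence, made by injection of Cas9 protein with a pair of guide RNAs. All of the samples are labelled with the stock BDSC #25710, the injected strain, which carries a nos-driven phiC31 integrase, X-linked alleles of yellow, scute, vermilion and sevenless, and the attP2 landing site on an autosome. The number of founder lines behind the Zeus KO libraries, the number of males in a library and their age in days are not given in the sources used here. Testes were kept in PBS before RNA was extracted. The libraries of a group are described as biological triplicates, but no source used here says that they came from separate crosses, so the p-values measure the spread between libraries, which may be technical.

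The deposited table gives, for each gene and group, the authors' mean of reads divided by the size factor of each library. Since every read of a library adds the same weight to that mean, the reads behind it can be recovered, and they were unique in both groups for 11411 genes (99.3%). The library values solved in this way are called normalised reads. They carry no replicate number, so the libraries are named a, b and c within each group by rising size factor, which was 0.76 to 0.938 for control and 0.752 to 1.13 for Zeus KO. The solved genes held between 9000685 and 13424963 reads per library. The 80 genes left unsolved held 18.6% of the summed group means, and 73 of them had a mean above the search limit of 20000. Apart from Mst77F, treated below, the unsolved genes had no library values and were not tested. Zeus itself, listed as Rcd-1r, had 380, 338 and 319 normalised reads in control a, b and c and 328, 269 and 269 in Zeus KO a, b and c. The groups overlapped, and limma gave a log2 fold change of -0.26 ± 0.131 (standard error) with an adjusted p of 0.314. A frameshift allele is still counted by its reads, so the level of Zeus RNA does not check the labels.

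In the fly, as in mammals, round spermatid nuclei still hold histones, which are removed during nuclear elongation. Transition proteins then occupy the chromatin for a short time, and they give way to protamine-like proteins that stay in the mature sperm head until fertilization. The genes are transcribed in spermatocytes, their mRNAs are stored, and translation begins only in late spermatids. A testis mRNA level therefore measures the stored message, which is shared by spermatocytes and spermatids, and not the protein. In RNA of a whole testis, fewer cells of these stages and less RNA per cell cannot be told apart.

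Among the genes of the transition stage, Tpl94D encodes a protein with an HMG box, a DNA-bending fold, that is present only while histones are being exchanged. Tpl94D (FBgn0051281) lies on the plus strand of chromosome 3R from 22966284 to 22967842 in the Ensembl annotation of dm6, with 2 transcripts and 1491 exonic bases. It had 8356, 7921 and 7571 normalised reads in control a, b and c, and 5566, 5445 and 4842 in Zeus KO a, b and c. Every Zeus KO library lay below every control library, and the mean fell from 7950 ± 393 (SD, n = 3) to 5284 ± 388 (SD, n = 3).

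The log2 fold change of Tpl94D was -0.59 with a standard error of 0.0932 (adjusted p = 0.00296 by limma over 11397 genes). This is a level 1.51-fold lower in Zeus KO, with a 95% interval of the log2 fold change from -0.80 to -0.39. A gene was called when its adjusted p was under 0.05 and its fold change at least 1.5, which held for 3.98% of all genes tested and, in the lower direction alone, for 1.9%. Tpl94D was thus 1 called gene among the 6 members tested in that fit. Its groups did not overlap, which was also true of 23.5% of the genes tested, and its adjusted p was under 0.05, as in 4.97% of them. The fold change lies at the limit of 1.5, and the call was lost without control a, without Zeus KO c and under quantile normalization, where the log2 fold changes were -0.55, -0.53 and -0.49. Its adjusted p stayed between 0.00253 and 0.0324 in all of the alternatives.

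**Figure D1:**
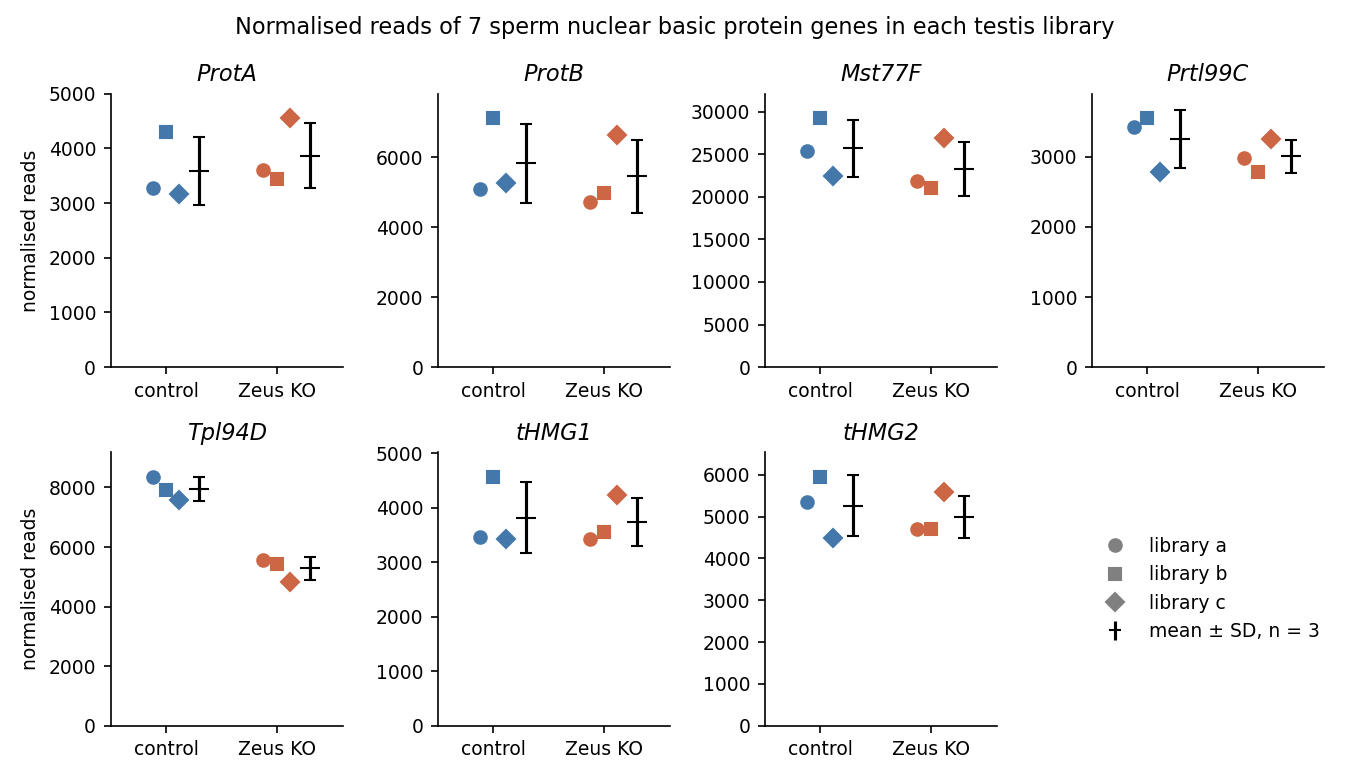
Normalised reads (linear axes from 0) of each gene in the 3 control libraries (blue) and the 3 Zeus KO libraries (orange), with a circle, a square and a diamond for libraries a, b and c and a bar for the mean ± SD. The Tpl94D values of Zeus KO, 4842 to 5566, sit below those of control, 7571 to 8356, and in the other panels the groups overlap.

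The tHMG1 and tHMG2 genes encode HMG-box proteins that, like Tpl94D, appear for a short time during the exchange. They lie next to each other on the plus strand of chromosome 3R, tHMG1 (FBgn0038978) from 22491829 to 22492381 and tHMG2 (FBgn0038979) from 22492953 to 22493746, with 571 bases between them. tHMG1 had 3467, 4565 and 3424 normalised reads in control a, b and c and 3430, 3555 and 4239 in Zeus KO a, b and c. The ranges overlapped almost entirely, and control b was the highest library. The log2 fold change of tHMG1 was -0.02 (95% interval -0.30 to 0.26, adjusted p = 0.947 by limma), with a sign that flipped to 0.03 under quantile normalization.

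For tHMG2 the values were 5349, 5951 and 4495 in control a, b and c, and 4698, 4704 and 5579 in Zeus KO a, b and c. These also overlapped, with control c the lowest library. The log2 fold change of tHMG2 was -0.07 (95% interval -0.33 to 0.19, adjusted p = 0.79 by limma). A fall of the size seen for Tpl94D lies outside the intervals of both genes. Changes within these intervals are not excluded, and the intervals do not give the smallest change that would be called.

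The pair of tHMG genes kept a similar proportion to each other. The ratio of tHMG2 to tHMG1 was 1.54, 1.3 and 1.31 in control a, b and c and 1.37, 1.32 and 1.32 in Zeus KO a, b and c. These ratios overlapped, and control a had the highest of them.

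ProtA and ProtB are the protamine-like genes of the fly, whose proteins enter the nucleus late in elongation and remain in sperm. They are near-identical tandem copies on the minus strand of 2L, ProtA (FBgn0013300) from 14879050 to 14881652 and ProtB (FBgn0013301) from 14882101 to 14883721, separated by 448 bases. A read that fits both copies cannot be placed, and how the counting treated such reads is not given in the sources used here, so the level of either gene is uncertain. ProtA had 3275, 4293 and 3171 normalised reads in control a, b and c and 3609, 3449 and 4549 in Zeus KO a, b and c. It was the only member with a mean above control in Zeus KO, though the libraries overlapped. The log2 fold change of ProtA was 0.12 (95% interval -0.19 to 0.42, adjusted p = 0.703 by limma).

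ProtB had 5088, 7113 and 5274 normalised reads in control a, b and c, and 4734, 4976 and 6651 in Zeus KO a, b and c. The highest library of each group was the same as for ProtA, and the groups overlapped. Its log2 fold change was -0.09 (95% interval -0.43 to 0.24, adjusted p = 0.785 by limma). Within a library, the ratio of ProtB to ProtA was steadier than either level. It was 1.55, 1.66 and 1.66 in control a, b and c and 1.31, 1.44 and 1.46 in Zeus KO a, b and c, so the ratios of the groups did not overlap. The mean ratio of the 3 libraries was 1.62 with an SD of 0.0614 in control, against 1.41 with an SD of 0.0819 in Zeus KO. This ratio was examined after the values had been seen, so it is a description without a test, and the placement of reads between the copies was not tested.

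Prtl99C encodes a further protamine-like protein of mature sperm, which contributes to the length of the sperm head. Prtl99C (FBgn0039707) lies on the plus strand of chromosome 3R from 29835950 to 29837447, and 248 of its 1053 exonic bases overlap exons of CG42592 on the opposite strand. Whether reads were counted by strand is not given in the sources used here, so reads of this stretch may belong to either gene. Prtl99C had 3419, 3546 and 2781 normalised reads in control a, b and c and 2985, 2780 and 3246 in Zeus KO a, b and c. The groups overlapped, and CG42592 was also not called, with a log2 fold change of -0.06. The log2 fold change of Prtl99C was -0.11 (95% interval -0.35 to 0.14, adjusted p = 0.654 by limma).

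Mst77F encodes a protein related to linker histones that is needed for the shape of the sperm nucleus and for male fertility. Mst77F (FBgn0086915) occupies bases 20816901 to 20818027 of chromosome 3L on the minus strand, inside the gene Pka-R1 on the plus strand, whose exons do not overlap it. It was the most abundant member, with a mean in the authors' table of 25676 in control and 23250 in Zeus KO. These means lie above the limit of 20000 up to which reads were solved. Above it, 3 sets of whole reads gave the control mean and 2 gave the Zeus KO mean, but a single set in each group kept every library within 1.5 times of the mean, as 99.6% of the solved genes with a control mean of at least 8000 do.

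In that set, chosen after the values were seen, Mst77F had 25379, 29199 and 22449 normalised reads in control a, b and c and 21874, 20990 and 26887 in Zeus KO a, b and c. The groups overlapped. The log2 fold change of Mst77F, from a fit to which the gene was added, was -0.14 (95% interval -0.42 to 0.13, adjusted p = 0.589 by limma). Pka-R1 had a log2 fold change of 0.03 (adjusted p = 0.924).

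The Y chromosome carries a cluster of copies of Mst77F, of which the table lists Mst77Y-7 (FBgn0267492). It had 229, 218 and 258 normalised reads in control a, b and c and 136, 156 and 185 in Zeus KO a, b and c. The groups did not overlap, but Mst77Y-7 did not pass the test, with -0.57 ± 0.152 (standard error) on the log2 scale and an adjusted p of 0.0562 by limma. Its reads were between 0.62% and 1.15% of those of Mst77F in the same library, and reads of such copies can be exchanged, so its level is uncertain.

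**Figure D2:**
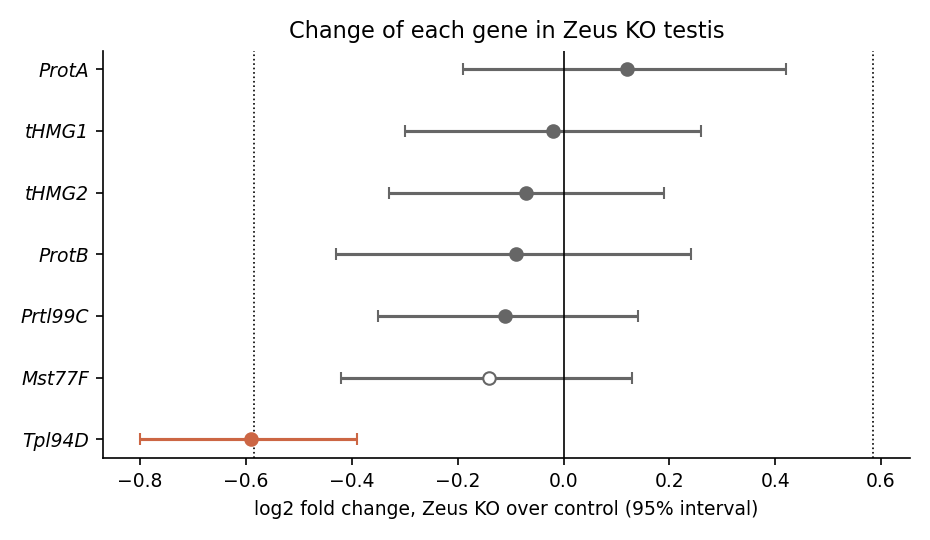
Log2 fold change of each gene in Zeus KO over control, with 95% intervals from limma on log2(normalised reads + 1); dotted lines mark a fold change of 1.5, orange an adjusted p under 0.05, and the open point the added fit of Mst77F. The interval of Tpl94D, -0.80 to -0.39, excludes 0, and those of the other 6 genes include it.

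Most of these genes were among the more abundant transcripts of the testis. By the mean of the groups, Mst77F ranked 51st and Tpl94D 385th of the 11491 genes, and the lowest member, Prtl99C, ranked 1082nd. The 7 genes together made up 0.363% of the normalised reads in control and 0.34% in Zeus KO by the authors' means, with 46.4% and 46.9% of this sum in Mst77F. The depth behind these values was at least 2246 reads per gene and library, so counting error is small beside the spread between libraries.

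Divided by exon length, the order of the levels in control was Mst77F with 24109 ± 3178 normalised reads per kilobase (SD, n = 3), then ProtB with 8579 ± 1648, tHMG2 with 8050 ± 1118, tHMG1 with 6906 ± 1170, Tpl94D with 5332 ± 264, ProtA with 5241 ± 908 and Prtl99C with 3085 ± 390. In control, the libraries of neighbours in this order did not overlap between Mst77F and ProtB, between tHMG1 and Tpl94D, and between ProtA and Prtl99C, and overlapped for the other pairs. In Zeus KO, Tpl94D had 3544 ± 260 and ProtA 5665 ± 870 normalised reads per kilobase (SD, n = 3). The range of Tpl94D per kilobase, 5078 to 5604, lay within that of ProtA in control, 4642 to 6286, while in Zeus KO the 3247 to 3733 of Tpl94D lay below the 5050 to 6660 of ProtA.

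The members other than Tpl94D shared the highest library of each group, but not the order of the other libraries. Control b was the highest control library for 6 of the 7 genes, and Zeus KO c the highest Zeus KO library for the same number. Tpl94D was the exception in both groups, with its highest values in control a and Zeus KO a and its lowest value of all in Zeus KO c. On the log2 scale, relative to the mean of the gene, control b was between 0.19 and 0.35 above for all of the members. Zeus KO c was between 0.06 and 0.30 above for all but Tpl94D, which was at -0.42. Control a divided the members, with ProtA, ProtB and tHMG1 at -0.17, -0.13 and -0.12. There, Prtl99C, tHMG2 and Mst77F were at 0.14, 0.07 and 0.06. The sum of the 7 genes was 54332, 62589 and 49166 normalised reads in control a, b and c and 46896, 45899 and 55992 in Zeus KO a, b and c, so the sums overlapped between the groups.

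**Figure D3:**
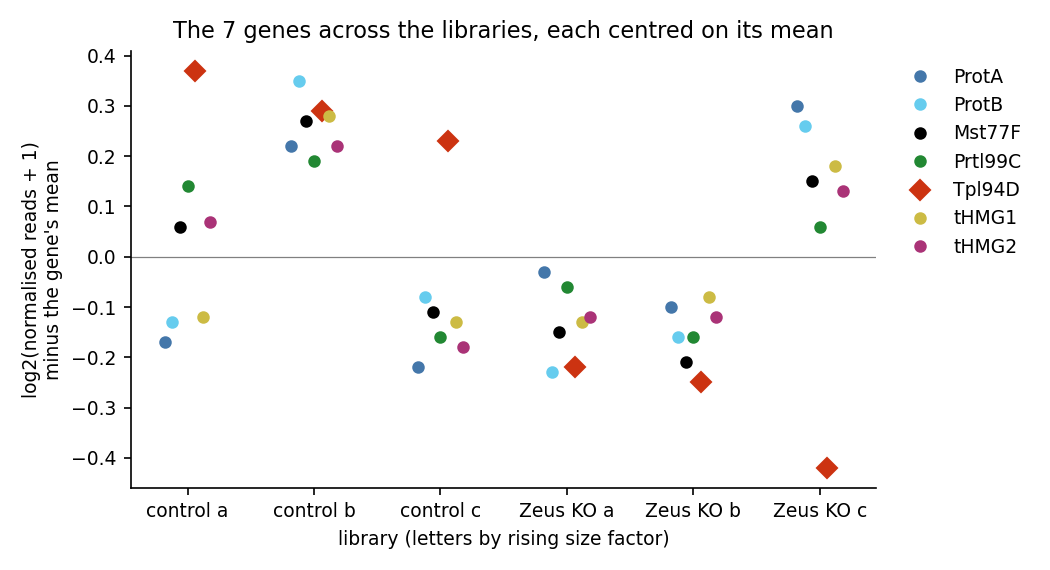
Log2(normalised reads + 1) of each gene minus its mean over the 6 libraries (vertical axis), by library (horizontal axis), with Tpl94D as red diamonds. Control b and Zeus KO c are the high libraries of 6 genes, while Tpl94D is 0.23 to 0.37 above its mean in control and 0.22 to 0.42 below it in Zeus KO.

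Because the libraries differed in the level of these genes as a group, Tpl94D was also set against each other member within the same library. Its ratio to tHMG1 was 2.41, 1.74 and 2.21 in control a, b and c and 1.62, 1.53 and 1.14 in Zeus KO a, b and c. Against tHMG2 it was 1.56, 1.33 and 1.68 in control and 1.18, 1.16 and 0.868 in Zeus KO. In both cases every Zeus KO ratio was below every control ratio, and the same was found against ProtA, Prtl99C and Mst77F. Against ProtB the ratios overlapped, with 1.64, 1.11 and 1.44 in control a, b and c and 1.18, 1.09 and 0.728 in Zeus KO a, b and c. Zeus KO c had the lowest ratio in all of these comparisons. The ratios were computed after the values had been seen. They all share Tpl94D, whose groups already did not overlap, so they are not separate observations. Whether Tpl94D changed by a different amount than the other genes was not tested.

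**Figure D4:**
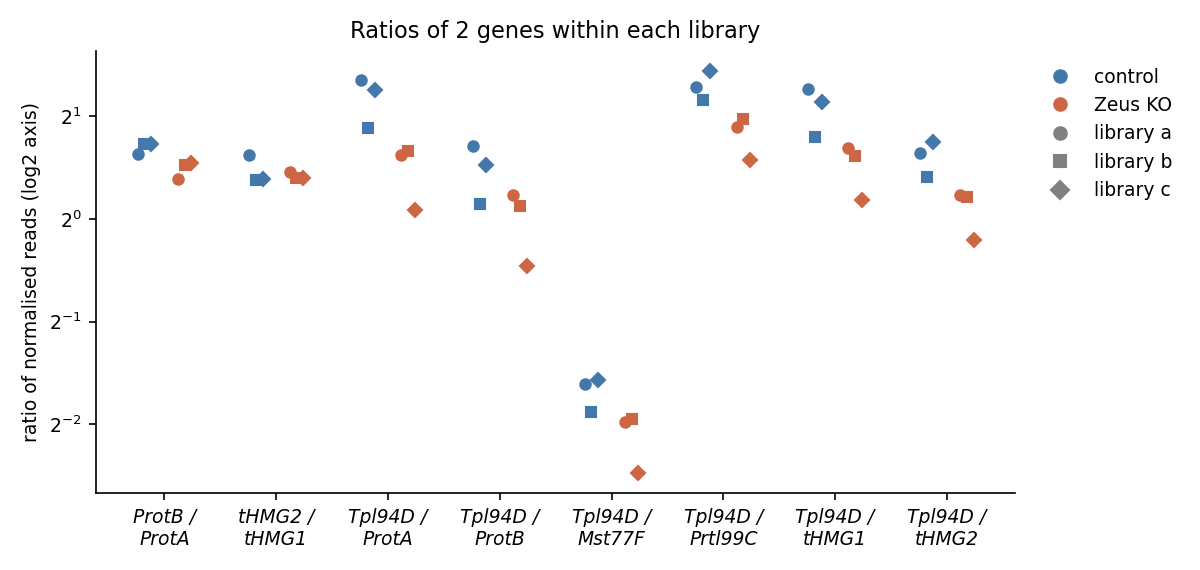
Ratio of the normalised reads of 1 gene to those of another in the same library (vertical log2 axis), for control (blue) and Zeus KO (orange), with a circle, a square and a diamond for libraries a, b and c. The ratio of ProtB to ProtA lies between 1.55 and 1.66 in control and between 1.31 and 1.46 in Zeus KO, and the ratios of Tpl94D to the other genes are lower in Zeus KO with an overlap only for ProtB.

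Other genes of sperm chromatin were compared as lists. Of 7 further genes for sperm nuclear proteins in the table, 0 were called by limma, against 3.98% of all genes, and 2 had an unadjusted p under 0.05, as 18.9% of all genes did. The counts of unadjusted p-values given for the lists are to be read against that share. With limma voom as an alternative, 0 genes of this list and of each further list of spermatid and chromatin genes were called. All 7 had a log2 fold change below 0, with a median of -0.20 against 0.00 over all genes tested. Their signs are not separate observations, because the genes share the libraries. Mst33A, the most abundant of them, had 8505, 9026 and 8536 normalised reads in control a, b and c and 7885, 7323 and 7563 in Zeus KO a, b and c. Its libraries did not overlap, with a log2 fold change of -0.20 (adjusted p = 0.249 by limma). The telomere protein gene ddbt had a log2 fold change of -0.17 (adjusted p = 0.627).

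Among 3 genes for telomere proteins of sperm or of all cells, ms(3)K81, HipHop and cav, 0 were called (1 with an unadjusted p under 0.05 in limma), and the median log2 fold change was -0.23. Among 5 genes for histone variants, which include the replacement histones that sperm chromatin gives way to after fertilization, 0 were called (1 with an unadjusted p under 0.05) and the median was 0.02. The list of 11 genes for chromatin assembly and for protamine removal in the egg had a median of 0.05 and 0 called genes (3 with an unadjusted p under 0.05). A single gene of it had an adjusted p under 0.05, TrxT, the thioredoxin of the testis. TrxT had 19825, 16817 and 14545 normalised reads in control a, b and c and 11777, 12269 and 12097 in Zeus KO a, b and c. Its groups did not overlap, and the level was 1.41-fold lower in Zeus KO (-0.49 ± 0.113 on the log2 scale, adjusted p = 0.0281 by limma), short of the fold limit.

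The transcription of spermatid genes in spermatocytes depends on the tMAC complex, the testis TAFs and the testis bromodomain proteins. Of the 16 genes of these groups, 0 were called (3 with an unadjusted p under 0.05, near the share over all genes) and the median log2 fold change was 0.00, with 8 below and 8 above 0. For 6 genes of the storage and translation of spermatid mRNAs, 3 had solved libraries, of which 0 were called and 0 had an unadjusted p under 0.05, with a median of 0.02. The median log2 fold change was -0.20 for the 7 tested Mst(3)CGP and don juan genes of the sperm tail, and -0.17 for 14 cup and comet genes, which are transcribed after meiosis. All 14 of the latter had a log2 fold change below 0, and their summed level was 53380 to 60900 normalised reads in control libraries, above the 50158 to 50737 of Zeus KO. The groups did not overlap for 5 of the 14, and for 23.5% of all genes tested. The genes of a list share the libraries, so their signs are not separate observations. Of the sperm tail list and the cup and comet list, 0 genes were called, and 0 and 3 had an unadjusted p under 0.05.

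**Figure D5:**
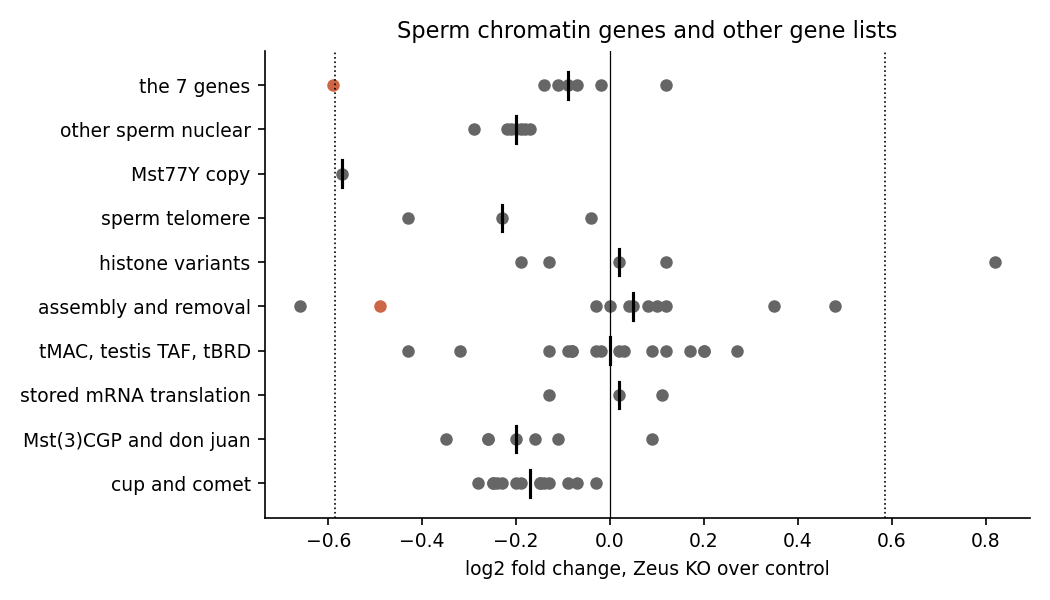
Log2 fold change in Zeus KO over control (horizontal axis) of each tested gene, by list, with a black line for the median of the list, dotted lines at a fold change of 1.5 and orange for an adjusted p under 0.05. Tpl94D and TrxT are the orange points, and the medians of the spermatid lists lie between -0.20 and -0.17.

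Markers of the stages and of other tissues moved as follows. The summed level of 5 spermatid markers was 34451 to 43379 normalised reads in the control libraries and 30933 to 35226 in those of Zeus KO, with 0 called (1 with an unadjusted p under 0.05) and 5 of 5 below 0. All 5 are also in the lists of don juan and of cup and comet genes, so they are no separate evidence. The sum of the spermatid markers was highest in control b and in Zeus KO c, the libraries in which most members were highest. The sum of the tested accessory gland markers was also highest there, with 55481 in control b and 37828 in Zeus KO c. The sums of the other marker lists did not peak in both of these libraries. The 9 spermatocyte markers summed to 27263 to 29092 normalised reads in control libraries, against 25159 to 27754 in Zeus KO. Of these markers, 4 are also in the lists of transcription and translation genes. The sums of the 7 early germline and of the 4 cyst cell markers also overlapped between the groups. Of the early germline markers, 5 were below 0 and 2 above, with a median log2 fold change of -0.19 and 0 called. For 2 of them, vas and zpg, every Zeus KO library lay below every control library. Of 6 tested accessory gland markers, 3 were called lower (Acp76A, Acp26Aa and Acp62F), and the sum of the list was 44407 to 55481 in control libraries against 26312 to 37828 in Zeus KO. Acp62F, whose libraries overlapped, had an adjusted p of 0.0497 in limma and lost its call with limma voom (adjusted p = 0.0528). Of 5 gut markers, 4 were called lower (Jon74E, betaTry, alphaTry and Jon99Ci), and the sum was 17245 to 18760 against 6960 to 8595. Of 5 muscle markers, the troponin T gene up was the 1 called higher, with sums of 7435 to 8801 against 10661 to 11533. All 5 had every Zeus KO library above every control library. Of 2 fat body markers Lsp2 was called higher and apolpp lower, of which Lsp2 lost its call with limma voom (adjusted p = 0.0642). Unadjusted p-values from limma were under 0.05 for 5 of 5 muscle, 6 of 6 accessory gland, 5 of 5 gut and 2 of 2 fat body markers. Over all genes tested this share was 18.9%, and groups that did not overlap made up 23.5%. The part of these differences in the level of Tpl94D and of the other members was not tested.

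By a rule that used the mean of the 6 solved members, the genes with the most similar pattern over the 6 libraries were Tim8, CG42870, eIF4E4, CG13599 and CG32313, with Pearson correlations between 0.995 and 0.998 among 8735 genes with a mean of at least 100 normalised reads. These points share libraries and depth, and 6.66% of the genes compared had a correlation over 0.9. Tim8 had 1249, 1542 and 1080 normalised reads in control a, b and c and 1038, 1038 and 1314 in Zeus KO a, b and c. As for most members, control b was the highest library and the groups overlapped, which the choice of Tim8 by its correlation largely fixes.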

How the data were processed

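For the 6 poly(A) testis libraries, the authors used STAR with dm6 for mapping and featureCounts for the counts per gene. The deposited signal of a gene is the authors' mean over the 3 libraries of a group of reads divided by size factors, not corrected for gene length. Versions, annotation release and strand setting are not given in the sources used here. The columns of the authors' comparison (fold changes, standard errors, p-values and calls) and the FastQC summary, whose sample names match no label, were not used.

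Whole reads per library were solved from the group means up to 20000, with weights read from the lowest values of each column and refined on solved genes, and a relative tolerance of 8e-15. The tolerance was widened once, after a narrower one had been seen to lie below the rounding error of the solved means. The solving was checked on simulated means. Solved values were tested with limma 3.58.1 in R 4.3.3, the moderated test with a trend on log2(normalised reads + 1), over the 11397 genes whose mean reached 1, with Benjamini-Hochberg adjustment. This scale understates the change of low genes. The test was also checked on simulated reads, with the spread of each gene drawn at random from the solved genes. Of genes changed 1.5-fold, 12 of 67 were called in the right direction. This was 56 of 69 at 2-fold and 58 of 64 at 4-fold, and 6 of 11197 unchanged genes were called. A gene that changed 1.5-fold would thus often go uncalled, in part because this fold is itself the limit of a call. Alternatives changed the pseudocount, the filter, the normalization, the model, the fold limit and the libraries used. Positions and exon lengths were taken from Ensembl release 115, which has dm6 coordinates.

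The members, the lists and the tests were chosen with earlier results of these data known. All members and Zeus are named, as are up to 3 called genes of each list (Jon99Ci was added as the fourth of its list) and the 5 genes most like the members. Neighbouring genes, Mst77Y-7, TrxT and other uncalled genes were named after their values were seen.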

Additional observations from a re-analysis of the deposited data

How the results depend on the processing

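The number of called members was 1 in the fit as reported and 0 under quantile normalization, and 0 to 1 with a library left out, where 0 was found without control a and without Zeus KO c. In these fits Tpl94D fell short of the fold limit, not of the adjusted p. The number of called genes over all was 454, and 298 to 561 with a library left out, the lowest without control a. Over 9 other settings it was 437 to 567, the highest with no fold limit. With a library left out, the log2 fold change ranged from -0.63 to -0.53 for Tpl94D, from -0.01 to 0.25 for ProtA, from -0.25 to 0.06 for ProtB, from -0.25 to -0.05 for Mst77F, from -0.22 to -0.04 for Prtl99C, from -0.12 to 0.11 for tHMG1 and from -0.18 to 0.02 for tHMG2. The sign of ProtA thus changed without Zeus KO c and those of ProtB and tHMG2 without control b, while tHMG1 changed sign without control b, Zeus KO a or Zeus KO b, and was 0.03 under quantile normalization. The cause was not tested. No member other than Tpl94D passed an adjusted p of 0.05 in any setting. Adding Mst77F, an alternative chosen after seeing the data, left 454 called genes. Under quantile normalization Mst77F had a log2 fold change of 0.00, which its place as the highest gene of the fit fixes, so that value is not counted among its settings. No paired analysis was possible because the solved libraries carry no replicate number. With 3 libraries a group, the 95% intervals of the uncalled members reach -0.43 and 0.42 on the log2 scale. Changes within the interval of a gene are not excluded for it.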

Other observations

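The genes that lie next to the members in the table were also read, 22 in all, of which 2 were called lower in Zeus KO and 0 higher, where 1.9% of all genes tested were called lower and 3.98% in either direction. With 2 genes, nothing is read from this count about the neighbours as a group. Gbp3 lies 9427 bases after Tpl94D. It had 40.8, 38.5 and 38.4 normalised reads in control a, b and c and 15.9, 11.8 and 15.1 in Zeus KO a, b and c, a log2 fold change of -1.41 (adjusted p = 0.0103 by limma). The other neighbours of Tpl94D were not called. Nha2, 13616 bases after it, went the other way, with a log2 fold change of 0.66 (adjusted p = 0.0841 by limma) and groups that did not overlap. Before Tpl94D, the log2 fold changes were 0.11 for CG6660 and -0.32 for CG4704. CG42313 lies 23767 bases after ProtB and had 190, 267 and 190 normalised reads in control and 43.9, 30 and 60.4 in Zeus KO, a log2 fold change of -2.28 (adjusted p = 0.000196). The nearest neighbours of tHMG1 and Prtl99C were not called, with log2 fold changes of -0.01 for CCT1 and -0.06 for CG42592.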
